A study of Mus musculus with 9 samples.

Results

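The p53 pathway was examined in hepatocellular carcinomas of genetically modified mice and in normal mouse liver, through Trp53, its inhibitor gene Mdm2 and 8 genes that p53 is known to switch on. The set was fixed by name: Trp53, Mdm2, Bax, Bbc3, Pmaip1, Ccng1, Phlda3, Zmat3, Sesn2 and Trp53inp1. It and the gene lists used below were chosen with earlier results of these data known. Their counts beside those of all genes are therefore descriptions. Probe sets were taken where the platform annotation gave exactly 1 of these symbols, which gave 14 probe sets for 8 of the 10 genes, out of 18193 genes in all. Trp53 and Bax had no probe set under that rule and were not analysed here, so no level of p53 RNA itself is given. Of the 8 genes, Bbc3, Pmaip1, Phlda3 and Zmat3 had 1 probe set each, Sesn2 and Trp53inp1 had 2 each, and Mdm2 and Ccng1 had 3 each.

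The 5 tumours carried deletions of both copies of Rb and p130 and 1 intact copy of p107, although their titles call them triple knockout (TKO), and the mice had been given adenovirus with Cre recombinase (Ad-Cre) into the spleen 4 months before dissection. For comparison, 4 livers of adult wild-type mice without tumours were used. Genotype, virus and tumour state therefore differed together and cannot be told apart. The labels give neither ages in weeks nor sexes nor the cells in which Cre acted. They also do not say that each sample is another animal, so a p-value here reflects sample-to-sample spread, which may be technical. RNA was amplified in 2 rounds and read on Affymetrix Mouse Genome 430 2.0 arrays, 1 array per sample. Levels are log2 values, where a difference of 1 is a doubling, and their number of arrays limits the precision.

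The p53 protein is a transcription factor that is kept scarce by Mdm2, a ubiquitin ligase that marks it for destruction, and that accumulates after DNA damage or oncogenic signals. Mdm2 is also a p53 target, so the pair forms a negative feedback loop. Other targets hold cells in G1, trigger the mitochondrial pathway of apoptosis or lower oxidative stress, and in liver the pathway is known for limiting growth after damage. In bulk tissue, fewer cells of a type and less RNA per cell cannot be told apart.

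Upstream sequence is shown for 3 of the genes, because p53 acts through a known DNA motif made of a 10-base element, here called the decamer, present in 2 copies, and these genes differ in whether it appears near their start. RefSeq promoters (build GRCm38.p6) were matched by symbol for 7 of the 10 genes, with 9 start sites, and not for Pmaip1, Zmat3 and Trp53inp1. Each window ran from 250 bases before to 50 bases after the start, and the 250 bases before it are printed 5′ to 3′. Capitals mark the p53 motif: the full site with at most 1 mismatch in Ccng1, the exact decamer in Mdm2, and nothing in Phlda3.
Ccng1, chr11:40755287-40755536, minus strand: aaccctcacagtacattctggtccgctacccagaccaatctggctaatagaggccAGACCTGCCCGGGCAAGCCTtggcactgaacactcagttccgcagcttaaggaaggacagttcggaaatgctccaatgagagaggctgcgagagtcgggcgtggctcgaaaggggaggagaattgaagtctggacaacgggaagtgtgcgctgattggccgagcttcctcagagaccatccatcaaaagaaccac
Mdm2, chr10:117710759-117711008, minus strand: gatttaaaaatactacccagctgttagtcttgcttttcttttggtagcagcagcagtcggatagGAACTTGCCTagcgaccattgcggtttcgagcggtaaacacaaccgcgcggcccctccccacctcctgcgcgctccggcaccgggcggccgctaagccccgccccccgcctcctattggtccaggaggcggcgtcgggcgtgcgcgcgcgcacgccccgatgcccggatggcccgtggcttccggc
Phlda3, chr1:135765835-135766084, plus strand: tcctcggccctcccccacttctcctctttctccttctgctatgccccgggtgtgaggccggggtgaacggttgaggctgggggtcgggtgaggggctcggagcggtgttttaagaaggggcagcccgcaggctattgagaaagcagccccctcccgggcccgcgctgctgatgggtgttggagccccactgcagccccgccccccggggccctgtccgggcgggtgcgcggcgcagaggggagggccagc

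The motif was searched by its name, the p53 response element, as 2 decamers with 0 to 13 bases between them. The consensus of the decamer reads the same on both strands, so each match stands for both. The Ccng1 window held a full site from 195 to 176 bases before the start with 1 mismatch and no spacer. A full site with at most 1 mismatch lay in 2 of the 9 windows, those of Ccng1 and Bax, and in 1.09% of all 32851 promoters of the same length. With up to 2 mismatches it lay in the same 2 windows and in 10.1% of all promoters, and with none in no window of these genes and in 0.0731% of all. An exact decamer lay in 4 windows, those of Ccng1, Mdm2, Bax and Trp53, and in 8.36% of all promoters. These matches are descriptions of letters. The p53-responsive promoter of Mdm2 lies in its first intron and was not covered.

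Some features of the samples bear on all comparisons. Rbl2, the gene of p130, fell by 1.99 (SE 0.30) on the log2 scale in the tumours, Rb1 rose by 1.05 (SE 0.17), and Rbl1, the gene of p107, lay near background and did not pass (-0.18, SE 0.26). Whether these probe sets lie in the deleted exons is not known here, so the Rb1 value neither checks nor contradicts the genotype. Xist, which marks female cells, was low in tumours 1 and 2 and in liver 4 (6.34, 6.39 and 6.66) and at 12.68 to 13.55 in the other arrays. Among cell type markers, 2 of 3 for B cells fell, 2 of 6 for stellate cells fell and 1 rose, and 1 of 5 for bile duct fell and 1 rose. Macrophage markers fell in 5 of 7 cases and endothelial markers in 3 of 6, where 17.4% of all genes fell. The macrophage and the endothelial levels were each summed on the linear scale and put in log2, so that the brightest markers weigh most. These sums were 10.52 to 12.46 and 10.01 to 11.15 in tumours, below the 12.81 to 13.84 and 12.37 to 12.69 of livers. None of 7 hepatocyte markers passed in limma, with sums of the same kind of 17.08 to 17.32 in tumours and 17.26 to 17.40 in livers. No macrophage, endothelial or hepatocyte marker was at background in both groups. The Actb control gave a 3′ minus 5′ log2 value of 0.61 ± 0.08 (SD) over the 5 tumours against 0.96 ± 0.04 (SD) over the 4 livers. This gap gave a two-sided p of 0.00794 by exact permutation, as low as 126 splits allow (0.0159 adjusted over the Actb and Gapdh controls). The Gapdh control differed the other way, with -0.21 ± 0.03 (SD) in tumours and -0.28 ± 0.05 (SD) in livers, and did not pass (exact permutation p = 0.0635). The part of these measures in the results was not tested.

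In the tumours, 5 of the 8 measured genes rose and none fell. Phlda3 rose most among those 5, followed by Zmat3, Mdm2, Ccng1 and Bbc3, with increases from 1.67-fold to 4.79-fold. Pmaip1, Trp53inp1 and Sesn2 were higher on average without passing the test. By comparison 16.1% of all genes rose and 17.4% fell (33.5% either way) in the same fit of limma with Benjamini-Hochberg adjustment at 0.05. Higher genes made up 48.0% of all calls, and 86.2% with arrays centred on housekeeping genes or 22.6% with arrays centred on their 75th percentile. Of the 12 housekeeping genes measured, 7 rose and 1 fell as deposited, with a median log2 difference of 0.49, so they were not a fixed reference. At an unadjusted p under 0.05, 7 of the 8 genes were higher and 0 lower, beside 3640 higher and 4661 lower of all 18193 genes. All 5 tumours lay above all 4 livers for Mdm2, Phlda3 and Zmat3, 3 of the 8, against 14.0% of all genes with every tumour above every liver and 15.9% with every tumour below. The median log2 difference of the 8 genes was 1.05, and that of all genes was -0.08. The number that rose was 3 without liver 2, without liver 3 or without liver 4, and 6 without tumour 2. It was 8 with arrays centred on housekeeping genes, a scaling that moved the median difference of all genes to 0.29. The array medians used for that centring were 12.17 to 12.92 in tumours and 12.73 to 12.98 in livers. This centring thus raised the differences, with a median of 1.42 for the 8 genes, although 7 of the 12 housekeeping genes rose as deposited.

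**Figure D1:**
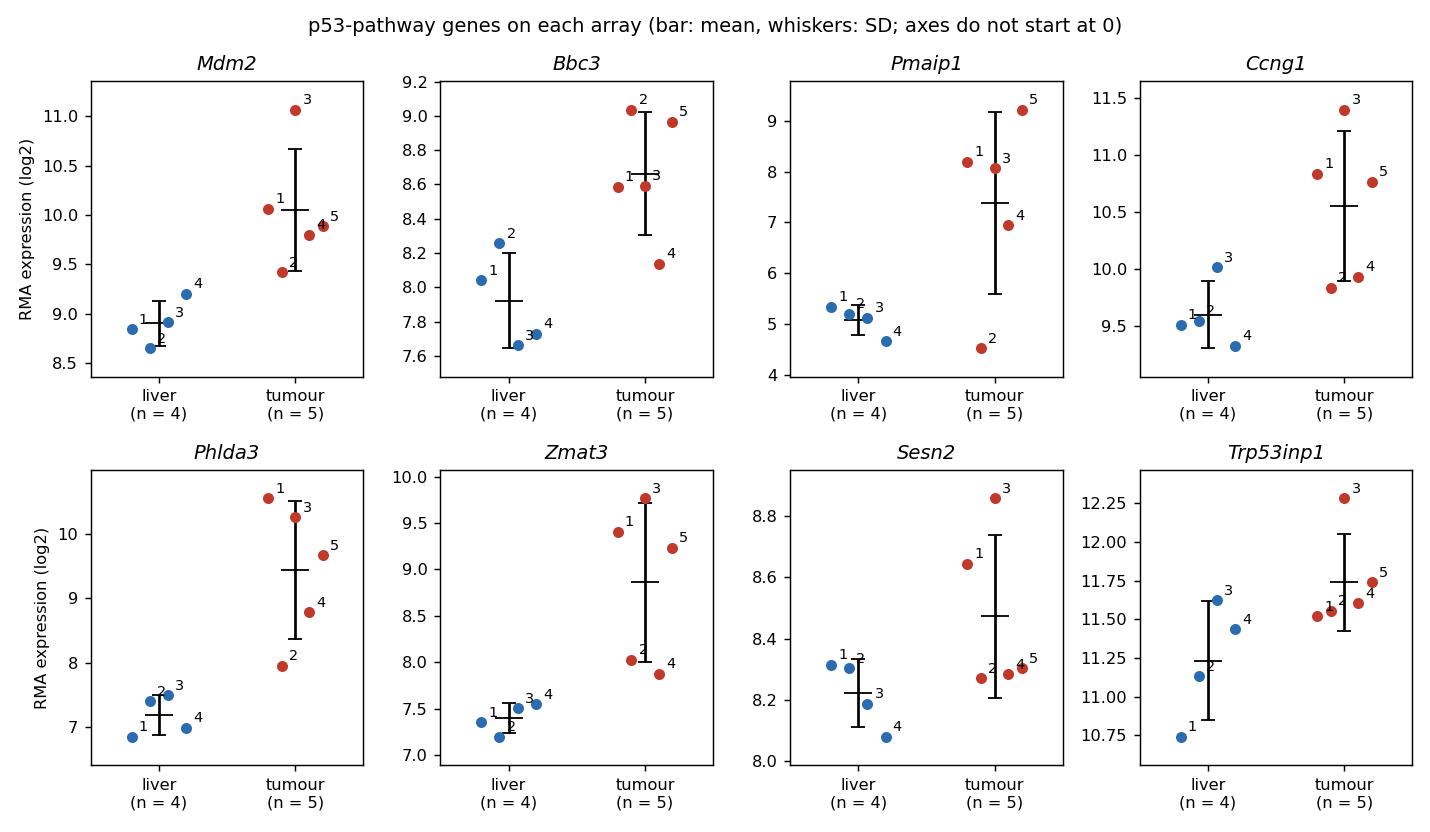
Log2 expression (y axis) of the 8 measured genes in the 4 livers (blue) and 5 tumours (red), with the sample number beside each point, the group mean as a bar and the SD as whiskers. The tumours spread more widely than the livers for every gene but Trp53inp1, and tumour 2 lies below all livers for Pmaip1.

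Mdm2, the inhibitor and feedback target, had levels of 10.06, 9.42, 11.07, 9.80 and 9.89 in tumours 1 to 5 and of 8.84, 8.65, 8.92 and 9.20 in livers 1 to 4. Tumour 3 was the highest array, and the lowest tumour, number 2, still stood above the highest liver, number 4. The tumours averaged 10.05 ± 0.62 (SD, n = 5) against 8.90 ± 0.23 (SD, n = 4) for the livers, which is 1.14 higher (SE 0.29, 2.21-fold, adjusted p = 0.0158 in limma). A second bright probe set of Mdm2 gave 9.52, 8.71, 10.59, 9.19 and 9.13 in tumours and 8.09, 8.12, 8.26 and 8.66 in livers. Its groups did not overlap either, and it differed by 1.15 (SE 0.33, limma adjusted p = 0.0308 over all probe sets). That call was lost without tumour 1 (1.12) and without liver 1 (1.08), 2 (1.09) or 3 (1.14). The third Mdm2 probe set read 3.92 to 4.12 in tumours and 3.95 to 4.25 in livers, within the 3.69 to 4.36 of the bacterial TrpnX control that has no target in mouse RNA. It carried no measurable level on these arrays.

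The apoptosis genes of the set encode BH3-only proteins, which release the killer proteins of the mitochondrial pathway. Bbc3 (Puma) was at 8.59, 9.04, 8.59, 8.14 and 8.97 in tumours 1 to 5 and at 8.04, 8.26, 7.66 and 7.73 in livers 1 to 4. Only tumour 4 fell inside the liver range. The log2 difference was 0.74 (SE 0.20, limma adjusted p = 0.0198), from means of 8.66 ± 0.36 (SD, n = 5) and 7.92 ± 0.28 (SD, n = 4). Its call was lost without liver 3 (0.65), without liver 4 (0.68) and without the 3 arrays of low Xist (0.58).

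Pmaip1 (Noxa) had the widest spread of the set. It was at 8.19, 4.52, 8.06, 6.94 and 9.22 in tumours 1 to 5, against 5.34, 5.20, 5.12 and 4.66 in livers 1 to 4. Tumours 1, 3, 4 and 5 stood above every liver, while tumour 2 stood below all of them and close to the TrpnX control. The SD was 1.79 in tumours and 0.29 in livers, and the log2 difference of 2.31 (SE 0.80, 95% interval 0.50 to 4.12) did not pass (limma adjusted p = 0.0527). Without tumour 2 the difference was 3.02 (adjusted p = 0.000896), and it also passed under both other scalings, with Xist as a covariate and without the arrays of low Xist.

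Among the targets tied to growth control, Phlda3, an inhibitor of Akt signalling at the membrane, was at 10.55, 7.96, 10.26, 8.79 and 9.67 in tumours 1 to 5. Its livers read 6.85, 7.40, 7.50 and 7.00, all below the lowest tumour, number 2. The log2 difference was 2.26 (SE 0.49, limma adjusted p = 0.00767) or 4.79-fold, and it kept its call in all 18 alternative settings, with differences from 1.98 to 2.63. Mdm2 also kept its call in all 18 as a gene, from 0.72 (the mean of its 3 probe sets) to 1.51. With the adjustment over all probe sets, its brightest probe set lost the call in 1 of 15 settings, without liver 2 (limma adjusted p = 0.05003). Its second probe set lost the call in 5 of 15.

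Zmat3, an RNA-binding zinc finger protein, was at 9.41, 8.03, 9.77, 7.88 and 9.23 in tumours 1 to 5 and at 7.36, 7.20, 7.51 and 7.55 in livers 1 to 4. Every tumour lay above every liver, but tumours 2 and 4 lay far closer to the livers than to the other 3 tumours. The log2 difference was 1.46 (SE 0.39, limma adjusted p = 0.0186), and the call was lost without liver 2 (1.39, adjusted p = 0.0504).

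Ccng1, which encodes cyclin G1 and whose upstream window holds the full motif printed above, was at 10.83, 9.83, 11.40, 9.93 and 10.77 in tumours 1 to 5. Its livers read 9.51, 9.54, 10.01 and 9.32, so that tumours 2 and 4 fell below liver 3. The difference of 0.96 (SE 0.32) passed narrowly (limma adjusted p = 0.0455). The other Ccng1 probe sets differed by 1.04 (SE 0.37, limma adjusted p = 0.0631) and 1.10 (SE 0.32, limma adjusted p = 0.0288), and in the latter no tumour overlapped a liver. The call of Ccng1 as a gene was lost in 9 of 18 settings: without tumour 1 (0.88), 3 (0.74) or 5 (0.90), without liver 1 (0.93), 2 (0.94), 3 (1.09) or 4 (0.86), without the arrays of low Xist (1.01) and with the 75th percentile scaling (0.78). With the adjustment over all probe sets, the brightest probe set lost its call in 10 of 15 settings. The probe set that differed by 1.10 lost its call in 7 of 15.

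The stress genes of the set moved least. Sesn2, a sestrin that restrains mTORC1, was at 8.64, 8.27, 8.86, 8.28 and 8.30 in tumours and at 8.31, 8.30, 8.19 and 8.08 in livers. Tumours 1 and 3 stood above the livers and the other 3 tumours stood among them. The log2 difference was 0.25 (95% interval -0.06 to 0.56, limma adjusted p = 0.183), and the second probe set gave 0.40 (95% interval -0.04 to 0.84).

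Trp53inp1, which encodes a nuclear stress protein that promotes p53 activity, was at 11.52, 11.56, 12.28, 11.60 and 11.74 in tumours and at 10.74, 11.13, 11.62 and 11.44 in livers. Tumours 3 and 5 exceeded every liver, and the other 3 tumours lay below liver 3. The difference of 0.51 (95% interval 0.03 to 0.98) did not pass (limma adjusted p = 0.0918). Its dimmer probe set differed by 0.13 (95% interval -0.36 to 0.61). Over all 14 probe sets, 7 rose and 0 fell in limma adjusted over all probe sets, where 13.5% of all probe sets rose and 14.5% fell. At an unadjusted p under 0.05 the counts were 10 and 0, and the share of all probe sets at that threshold was not counted. Probe sets of a gene are not independent.

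**Figure D2:**
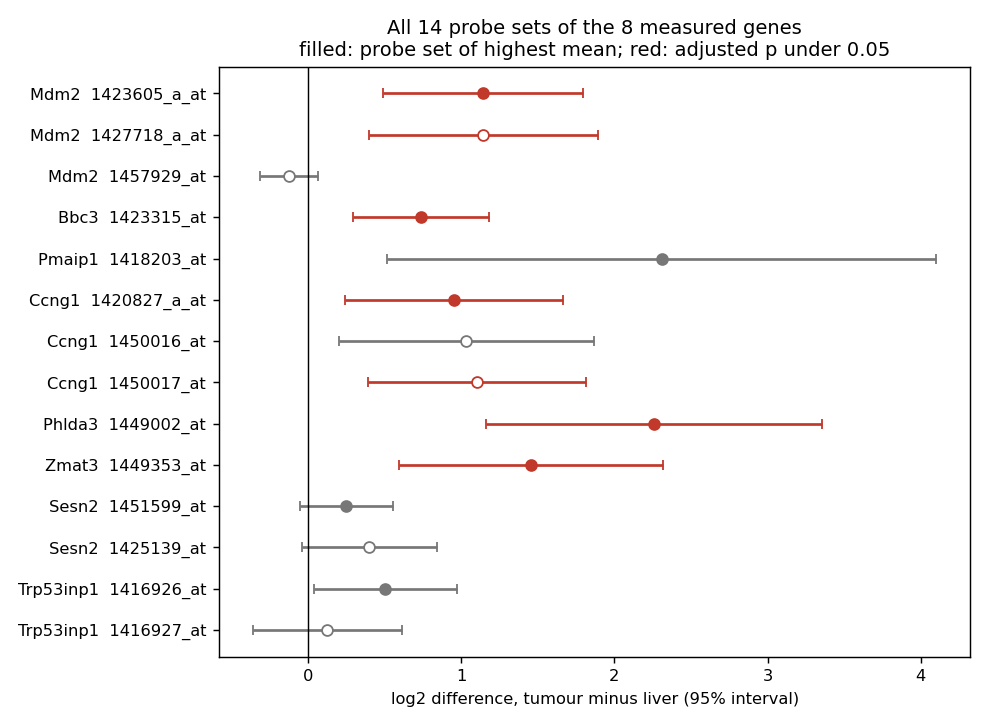
Log2 difference between tumours and livers (x axis) with its 95% interval for each of the 14 probe sets (y axis), filled where the probe set had the highest mean of its gene and red where the adjusted p was under 0.05. The 7 red probe sets belong to Mdm2, Bbc3, Ccng1, Phlda3 and Zmat3, and the only value below 0 is the Mdm2 probe set at background.

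The tumours were not alike. The median of the 8 genes, each taken as the level minus its liver mean, was 1.20, 0.42, 1.98, 0.42 and 1.11 in tumours 1 to 5, and -0.17 to 0.07 in the livers. All 8 genes exceeded every liver in tumour 3, 7 did in tumour 1 and 7 in tumour 5, but only 4 did in tumour 2 and 4 in tumour 4. Over all genes, the share above every liver was 25.5% to 30.5% in the 5 tumours, and it was lowest in tumour 2 and highest in tumour 3. The SD was larger among tumours than among livers for 7 of the 8 genes and for 58.0% of all genes.

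Tumours 2 and 4 were the lowest pair for 6 of the 8 genes, Mdm2, Pmaip1, Ccng1, Phlda3, Zmat3 and Sesn2, and for 11.3% of all genes. Bbc3 ran otherwise, with its highest level in tumour 2. The order depended in part on the scaling: tumours 2 and 4 were the lowest pair for 4 of the 8 (Pmaip1, Ccng1, Phlda3 and Zmat3) and 2.09% of all genes with arrays centred on housekeeping genes, and for 5 of the 8 and 7.66% with the 75th percentile. Tumour 3 was the highest for 5 of the 8 as deposited (19.5% of all genes) and for 5 of the 8 with the 75th percentile (14% of all genes). After centring on housekeeping genes it was the highest for 1 of the 8 (2.34% of all genes). These housekeeping genes had an array median of 12.92 in tumour 3 and of 12.17 to 12.59 in the other tumours. In tumour 3 that median lay between Ywhaz (12.47) and Pgk1 (13.38), and Pgk1 was at 11.92 in tumour 4. The centre of an array is thus set by its middle housekeeping genes, which themselves varied. Their part in the order after this centring was not tested. This order was noticed in the values and is a description with no test.

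**Figure D3:**
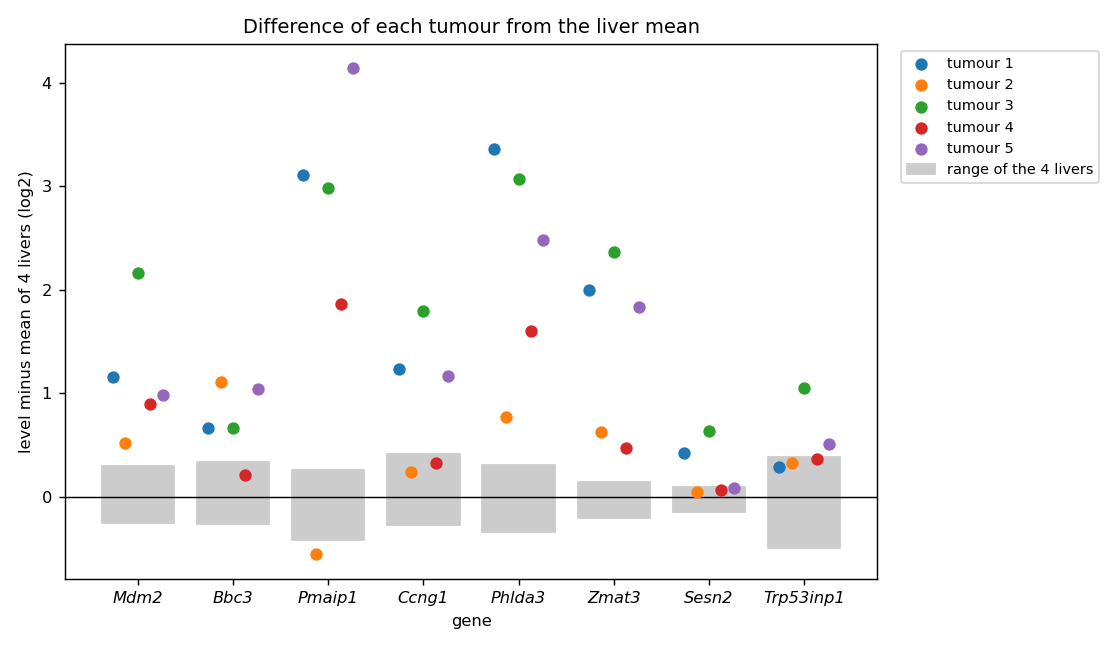
Level of each tumour minus the mean of the 4 livers on the log2 scale (y axis) for the 8 genes (x axis), with grey boxes for the range of the livers. Tumours 2 and 4 lie lowest for Mdm2, Pmaip1, Ccng1, Phlda3, Zmat3 and Sesn2, whereas tumour 2 lies highest for Bbc3.

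Of 36 measured genes in a list of 40 other p53 targets, 13 rose (36.1%) and 5 fell (13.9%) in limma, beside 16.1% and 17.4% of all genes, so the share that fell was no larger than over all genes. At an unadjusted p under 0.05, 18 were higher and 5 lower, beside 3640 and 4661 of all 18193 genes, and the median log2 difference was 0.40. With arrays centred on housekeeping genes 22 rose and 1 fell, beside 23.1% and 3.72% of all genes. With the 75th percentile 10 rose and 6 fell, beside 12.8% and 43.9%. Cdkn1a, which encodes the cyclin-dependent kinase inhibitor p21 and is the classical arrest target, was at 12.996, 11.33, 13.15, 11.51 and 12.80 in tumours 1 to 5 and at 8.14, 6.79, 7.47 and 7.51 in livers. Its lowest tumours were again numbers 2 and 4, yet all tumours stood far above all livers, by 4.88 on average (SE 0.44, limma adjusted p = 6.25e-05). Ckap2, a spindle protein, rose by 4.78 (SE 0.27, limma adjusted p = 2.55e-06), Siva1, a pro-apoptotic protein, by 2.43 (SE 0.16) and Ddb2, a sensor of ultraviolet damage, by 1.78 (SE 0.15).

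The target genes that fell were led by Dcxr, a xylulose reductase of liver, at -1.58 (SE 0.27, limma adjusted p = 0.00229), and the death receptor gene Fas at -0.89 (SE 0.18, limma adjusted p = 0.00469). The repair gene Xpc (-0.42, SE 0.10) and Tigar, a regulator of glycolysis (-0.83, SE 0.22), fell as well. With arrays centred on housekeeping genes Fas (-0.53), Xpc (-0.049) and Tigar (-0.46) did not pass. Tigar was also lost without liver 3 (-0.68) or liver 4 (-0.75) and with the mean of its probe sets (-0.33), and its 2 dimmer probe sets differed by -0.08 and -0.10. Tumours 2 and 4 were the lowest pair for 9 of the 36 targets (25%), among them Cdkn1a and Ckap2, and for 9 of the 31 p53 regulators (29%), beside 11.3% of all genes. After centring on housekeeping genes these counts were 6 of 36 and 1 of 31, beside 2.09% of all genes, and the difference between the lists was not tested.

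Of 31 measured genes in a list of 33 p53 regulators, 12 rose (38.7%) and 1 fell (3.23%), beside the same 16.1% and 17.4% of all genes. Their median log2 difference was 0.29. At an unadjusted p under 0.05, 14 were higher and 1 lower, beside 3640 and 4661 of all 18193 genes. The split depended on the scaling. With arrays centred on housekeeping genes 17 rose and 0 fell, beside 23.1% and 3.72% of all genes. With the 75th percentile 10 rose (32.3%) and 5 fell (16.1%), beside 12.8% and 43.9% of all genes. Chek1 and Chek2, the checkpoint kinases that phosphorylate p53, rose by 5.11 (SE 0.15) and 2.30 (SE 0.22). The Chek1 value came from a probe set that can cross-hybridise, and its other probe sets gave 4.85, 1.79, 0.32 and -0.34, the last of these without passing. Ppm1d, the Wip1 phosphatase that switches the p53 response off, was at 8.78, 9.12, 8.59, 8.90 and 9.24 in tumours and at 6.93 to 7.35 in livers, a rise of 1.82 (SE 0.15, limma adjusted p = 2.89e-05). Its tumours kept within a narrow range and did not follow the order of Mdm2. Daxx, which binds Mdm2, rose by 0.78 (SE 0.09).

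Cdkn2a, whose products include the Mdm2 inhibitor Arf, was at 5.67, 4.53, 5.90, 5.35 and 5.63 in tumours and at 4.50, 4.14, 4.40 and 4.29 in livers. Tumour 2 lay just above the highest liver, and the rise of 1.08 (SE 0.25, limma adjusted p = 0.00992) started from a liver mean inside the TrpnX range. Mdm4, the partner of Mdm2, rose by 0.66 (SE 0.12, limma adjusted p = 0.00316) with a probe set that can cross-hybridise with similar genes. Its 3 other probe sets gave 0.20, -0.22 and -0.24 without passing, so its direction depended on the probe set. Hipk2, a kinase that activates p53, fell by 0.67 (SE 0.19, limma adjusted p = 0.0257), a call lost without liver 3 (-0.67) or liver 4 (-0.61), with the mean of its probe sets (-0.22) and with arrays centred on housekeeping genes (-0.30).

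**Figure D4:**
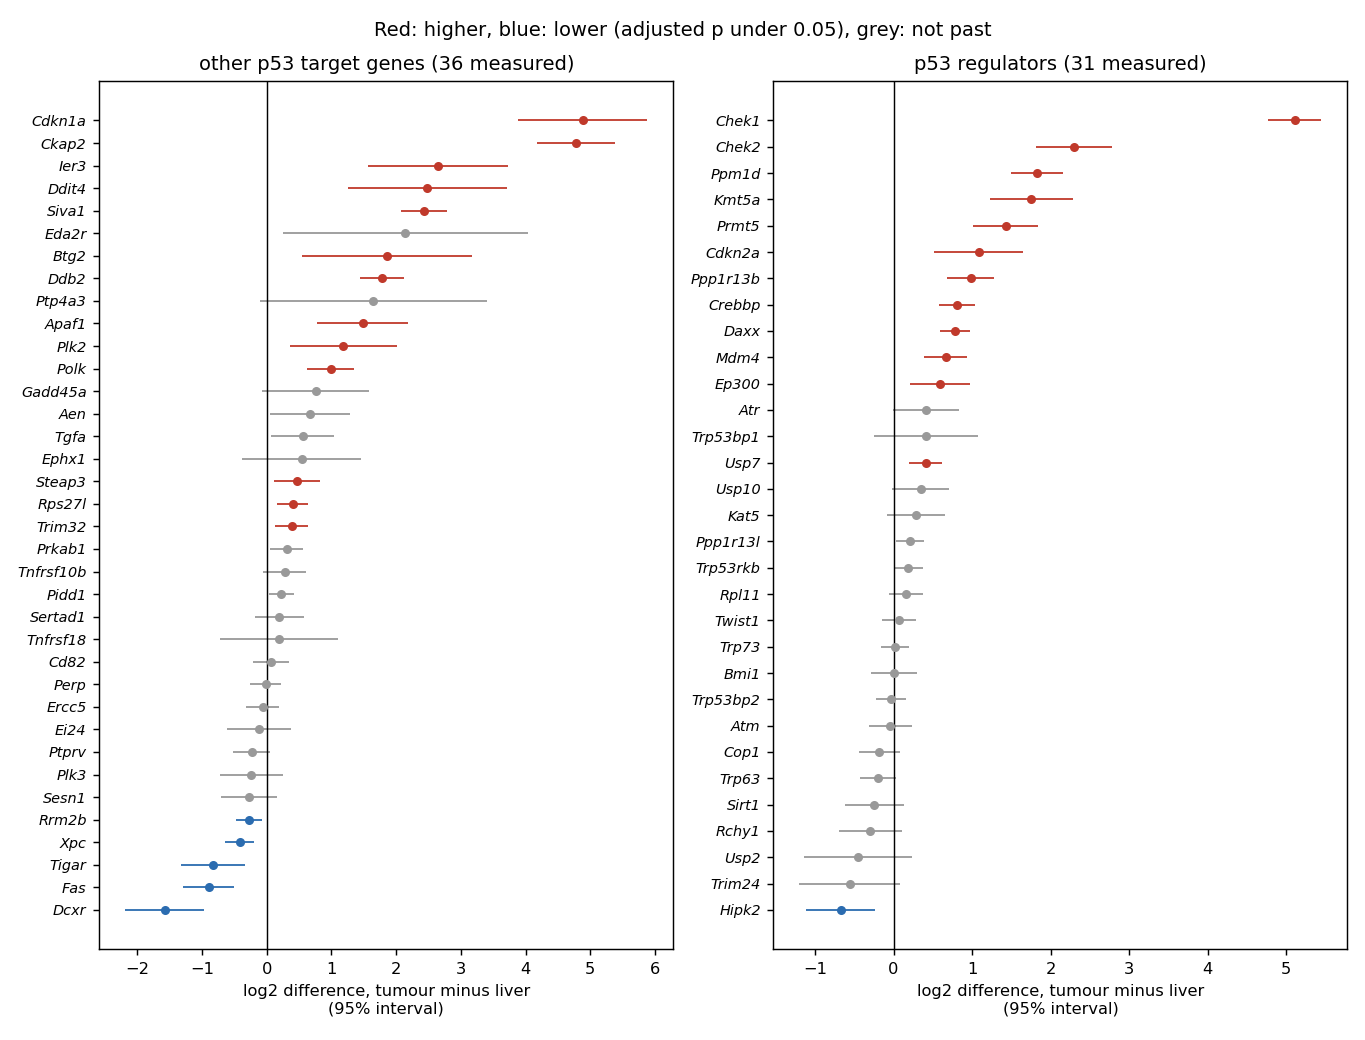
Log2 difference between tumours and livers (x axis) with its 95% interval for 36 other p53 target genes (left) and 31 p53 regulators (right), red where higher and blue where lower at an adjusted p under 0.05. Cdkn1a (4.88) and Ckap2 (4.78) lead the targets and Chek1 (5.11) the regulators.

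The genes whose levels followed Mdm2 most closely over the 9 arrays, after each group mean was removed, were Kptn, Tnnc1, St14, Selenon and Madcam1, among 15337 genes compared. Their Pearson r was 0.973, 0.972, 0.971, 0.971 and 0.969. These correlations are descriptions over arrays that share their processing. Without tumour 3, the array highest in Mdm2, they were 0.852 to 0.940, and after centring on housekeeping genes that of Kptn was 0.442. No other member of the p53 set was among these 5 genes.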

How the data were processed

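Expression was measured in 5 tumours and 4 livers, grouped by sample title. The authors deposited 1 log2 value per probe set and array, computed with RMA per the submitters' processing notes, with no version or settings stated there. RMA compresses differences of dim probe sets. Of 45101 probe sets, 64 controls were left out; 34945 named 1 gene, 932 several and 9160 none in the platform annotation, and no symbol changed when checked against RefSeq identifiers.

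Genes with several probe sets were represented by the brightest on average over the 9 arrays, which left 18193 genes. The tumour minus liver difference was fitted in R 4.3.3 by limma 3.58.1 (two-sided, moderated, no covariates), adjusted by Benjamini-Hochberg over all genes, or over all 45037 probe sets for single probe sets. The members and gene lists were chosen with earlier results of these data known. Beside the members, the rule for named genes took Cdkn1a, Mdm4, Cdkn2a, up to 4 genes per list and direction with the smallest adjusted p, and the 5 genes most like Mdm2; the same rule for Trp53 had no probe set to use. The fit was tested on simulated data for 18193 genes, where it recovered 38.8%, 74.6% and 92.4% of 67, 67 and 66 genes planted at 0.5, 1 and 2 log2 units. Both groups shared 1 SD per gene there. In the real data 33.5% of genes passed, and 7 of the 8 measured genes had a larger SD among tumours. The recovered shares therefore do not give the power for these genes. Same-numbered samples were not treated as pairs. The correlations of their deviations from the group means were -0.13, -0.07, 0.18 and -0.12, and a shared batch was not tested. The closest arrays differed by 0.295 (root mean square), so none was taken for a duplicate. Motifs were searched with Python 3.11.15 and numpy 2.4.6; plots used matplotlib 3.10.9. Alternatives were 2 other scalings, the probe sets used, a filter, the prior variance, a replicate block, Xist, and leaving out each array.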

Additional observations from a re-analysis of the deposited data

Results flagged for a closer look

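Trp53inp1 in tumour 3 stood apart from the other tumours with both probe sets, at 12.28 with the brighter one and 8.33 with the dimmer one. The gap to the next tumour took up 0.711 and 0.714 of the tumours' range, where 0.71 is Dixon's 95% critical value for 5 samples. These were the 2 cases in 28 sets of tumours or livers examined, and chance gives about 1 in 20.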

How the results depend on the processing

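Each of the 8 genes kept the sign of its difference in all 18 alternatives. The number that rose was 8 with housekeeping centring, 4 with the replicate block and 3 to 6 with single arrays left out. The replicate block, on numbers not treated as pairs in the main fit, gave 3552 genes past the threshold in place of 6091. It gave 11 in place of 18 other p53 targets. Zmat3 (1.37), the second Mdm2 probe set (1.22), Tigar (-0.77) and Hipk2 (-0.70) lost their calls under it. With the adjustment over all probe sets, so did the brightest Ccng1 probe set (0.90) and the Ccng1 probe set that differed by 1.10 in the main fit (1.06). The 75th percentile scaling gave 10310 genes; the cause was not tested. The share of higher calls over all genes was 48.0% as deposited, 86.2% with housekeeping centring and 22.6% with the 75th percentile, and these scalings moved the median difference of all genes from -0.08 to 0.29 and -0.26. Signs turned for the Mdm2 probe set at background (0.25 with housekeeping centring), for the dimmer Trp53inp1 probe set (-0.050 with the 75th percentile, and -0.061 to 0.30 with single arrays left out, the lowest without liver 1) and for Mdm4 without cross-hybridising probe sets (-0.24); none of these 4 values passed. The Mdm2 probe set at background passed as lower with the 75th percentile scaling (-0.30, limma adjusted p = 0.0198 over all probe sets), although it carried no measurable level. With single arrays left out, 13 to 20 other p53 targets and 11 to 15 regulators passed. Signal near the TrpnX control limits Pmaip1 and Cdkn2a in the livers. The alternatives for single probe sets, for single genes of the lists and for likeness to Mdm2 were added after seeing the data.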

Other observations

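A few other p53 targets, chosen after their values were seen, varied widely between tumours. Eda2r, a receptor of the tumour necrosis factor family, was at 9.04, 7.02, 9.36, 4.81 and 8.17 in tumours 1 to 5 and at 5.04 to 6.13 in livers. Tumour 4 lay below every liver and the other tumours above, and the log2 difference of 2.14 (SE 0.84) did not pass in limma (adjusted p = 0.0767). Ptp4a3, a phosphatase, was at 11.33 in tumour 3 and at 7.22 to 7.76 in the other tumours, against 6.24 to 7.14 in livers. Ier3, an early response gene, rose by 2.65 (SE 0.48), and its lowest tumours were numbers 2 and 4 at 8.36 and 8.43.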
